A study of Mus musculus with 48 samples.

Results

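Enteroendocrine hormone genes were examined in mouse jejunum as 10 genes chosen by name: Gcg, Gip, Cck, Sct, Nts, Pyy, Sst, Ghrl, Tac1 and Chga. They are 10 of 55401 genes in the deposited count table, and all 10 passed the low-count filter that left 15646 genes for testing. Whole jejunum, the middle stretch of small intestine, was sampled in constant darkness every 4 h at 6 circadian times from CT1 to CT21. The genotype Bmal1iec-/- is called knockout here, and bmal1fl/fl, which carries floxed Bmal1 alleles, is called control. Bmal1 (symbol Arntl) is a transcription factor at the centre of the circadian clock. The knockout is aimed at the intestinal epithelium, and the samples hold every layer of the gut wall. The driver of the deletion and the mice's age and feeding are not given in the sources used. There were 23 knockout and 24 control libraries, 4 in each group of genotype and time except knockout CT9, which had 3.

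Enteroendocrine cells are rare secretory cells scattered through the gut epithelium. They sense the contents of the gut and release peptide hormones that act on insulin secretion, bile and pancreatic flow, motility and appetite. Each hormone is made as a longer precursor, cut by proteases and stored in dense granules, and hormone cells differ in kind along the length of the gut. Many clock genes are active in gut epithelium, and release of several of these hormones follows a daily course in rodents.

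Libraries held 4.34 to 6.91 M counts (M for mega), with a median of 5.43 M. Levels are given as counts per M (CPM) after scaling of libraries, and 3 counts, the limit that a count of 0 allows, correspond to 0.439 to 0.703 CPM on that scale. Such limits cover counting error only. Arntl itself ranged from 18.4 to 37.0 CPM in knockout libraries and from 8.48 to 89.4 CPM in control libraries, where it was highest at CT21 and lowest at CT9. Its knockout group means stayed between 27.3 and 31.4 CPM. Transcript left after the deletion and transcript from cells outside the epithelium cannot be told apart here. In 5 libraries the genes spread widely around their median over all libraries: knockout CT1 replicates 1, 2 and 3, knockout CT21 replicate 4 and control CT21 replicate 1. The interquartile range of that spread was 0.618 to 1.161 (log2) in these 5 and at most 0.491 in the other 42. Short genes were also raised against long ones in the 5, with a slope of -0.265 to -0.106 log2 per log2 of length, against -0.055 to 0.072 in the rest. Each of the 10 hormone genes is shorter in exons (631 to 3399 bases, median 1163) than the median gene tested (4006 bases). Results that rest on these libraries are given with and without them.

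The tissue label was checked against marker genes of the gut and its neighbours. Epithelial markers (Epcam, Vil1 and 6 others) summed to 9240 to 17900 CPM in knockout libraries and 8370 to 13700 CPM in controls. Pancreatic islet markers, which matter because islets also make Gcg, Sst and Pyy, summed to at most 0.761 CPM in knockout and 0.415 CPM in control libraries, with Ins1 and Slc30a8 at 0 in every library. Pancreatic acinar markers summed to 78.4 to 233 CPM in knockout and 72.5 to 184 CPM in control libraries. Clps averaged 114 CPM in knockout and 99.9 CPM in control, and Cela1 6.8 and 7.3 CPM. Cpa1, Pnlip, Ctrb1 and Cel averaged at most 0.072 CPM in either genotype. Stomach markers, which matter for Ghrl and Sst, summed to at most 2.2 CPM in knockout and 2.96 CPM in control libraries, with Gkn2 at 0. Enteric neurons also express Tac1, Sst and Cck, and a list of 10 neuron markers summed to 56.8 to 111 CPM in knockout and 52.0 to 96.1 CPM in control libraries, with 0 of 9 tested markers called at an adjusted p below 0.05 (lowest 0.154, edgeR), 0 at an unadjusted p below 0.05, and 0 by DESeq2 or limma-voom. The share of nerve transcripts in the 3 genes was not measured.

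The promoters of a few of these genes carry the short letters that clock and cyclic AMP factors are known to bind, and they are shown because Bmal1 itself acts through one of them. The 250 bases before the RefSeq transcript start were read for each member, in 14 windows, from the RefSeq promoter table for GRCm38.p6, and 3 motifs were searched on both strands. The clock E-box CACGTG, the element bound by Bmal1 with its partner, was found in Cck and Tac1, and 6.02% of all 32851 windows hold it. The cyclic AMP response core TGACGT was found in Chga and Sst, and 6.47% of windows hold it. The nuclear receptor half-site AGGTCA was found in Sct and in 2 overlapping windows of Ghrl, and 14.0% of windows hold it. Gcg, Gip, Nts and Pyy had none of the 3 in their windows. The windows below are from chr9:121495695-121495944 on the minus strand for Cck, chr6:7554811-7555060 on the plus strand for Tac1, chr12:102554691-102554940 on the plus strand for Chga, chr16:23890845-23891094 on the minus strand for Sst and chr2:62483654-62483903 on the minus strand for Gcg, each 5' to 3' along the gene, with the motif in capitals. The E-box begins 66 bases before the RefSeq start in Cck and 61 in Tac1, and the core begins 44 bases before it in Chga and 48 in Sst. In Sst the core lies on both strands in overlapping letters. Gcg is printed as a member with a called difference and no match. In the GENCODE annotation Tac1 and Sst start further upstream than in RefSeq, inside the printed windows. A match is a description of letters, and no binding was measured.
Cck: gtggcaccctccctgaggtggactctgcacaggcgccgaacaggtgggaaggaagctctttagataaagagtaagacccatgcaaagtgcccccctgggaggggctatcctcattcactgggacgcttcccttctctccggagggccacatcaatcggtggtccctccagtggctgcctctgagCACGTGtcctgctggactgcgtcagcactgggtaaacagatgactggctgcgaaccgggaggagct
Tac1: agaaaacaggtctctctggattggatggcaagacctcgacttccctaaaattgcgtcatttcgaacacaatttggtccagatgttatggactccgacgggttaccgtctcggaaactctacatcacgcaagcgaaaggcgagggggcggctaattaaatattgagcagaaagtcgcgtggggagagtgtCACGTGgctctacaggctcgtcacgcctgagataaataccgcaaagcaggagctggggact
Chga: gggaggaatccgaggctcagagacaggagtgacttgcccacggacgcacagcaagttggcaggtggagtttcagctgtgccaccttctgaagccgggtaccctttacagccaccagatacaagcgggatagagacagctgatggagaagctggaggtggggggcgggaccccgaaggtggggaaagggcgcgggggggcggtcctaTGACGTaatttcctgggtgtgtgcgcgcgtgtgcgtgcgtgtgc
Sst: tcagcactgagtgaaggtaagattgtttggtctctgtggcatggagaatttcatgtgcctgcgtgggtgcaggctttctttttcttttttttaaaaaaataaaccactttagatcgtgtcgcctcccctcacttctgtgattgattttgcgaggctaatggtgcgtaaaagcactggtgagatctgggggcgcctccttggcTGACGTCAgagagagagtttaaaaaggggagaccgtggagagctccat
Gcg: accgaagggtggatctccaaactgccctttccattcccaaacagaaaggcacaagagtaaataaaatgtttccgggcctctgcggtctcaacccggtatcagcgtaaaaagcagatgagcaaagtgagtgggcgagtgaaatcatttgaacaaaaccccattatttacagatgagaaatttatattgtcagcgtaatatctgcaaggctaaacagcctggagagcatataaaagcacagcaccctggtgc

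Per length, Gip was the most abundant of the 10 in both genotypes. Mean levels per kilobase of exon were 119 CPM in knockout and 108 CPM in control for Gip, which encodes the incretin of the upper small intestine. Nts, the precursor of neurotensin, followed at 36.7 CPM per kilobase in knockout and 33.9 in control. Sst (29.7 in knockout, 27.7 in control), Sct (27.9 in knockout, 22.5 in control), Chga (25.4 in knockout, 21.1 in control) and Gcg (24.2 in knockout, 18.9 in control) came next on the same scale. Cck (12.6 in knockout, 8.82 in control), Ghrl (4.67 in knockout, 4.19 in control), Tac1 (2.75 in knockout, 2.41 in control) and Pyy (1.44 in knockout, 1.51 in control) had the lowest levels. Over both genotypes Gip stood 3.23-fold above the next member, and the whole set spanned 77.6-fold. When the 12 group means of a member were put in order, each group's range overlapped that of the next one up, in all 10 members. In that order the 6 knockout means of Gcg (32.4 to 40.6 CPM) stood above its 6 control means (25.9 to 30.4 CPM). The share of all genes with such an order was not computed.

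**Figure D1:**
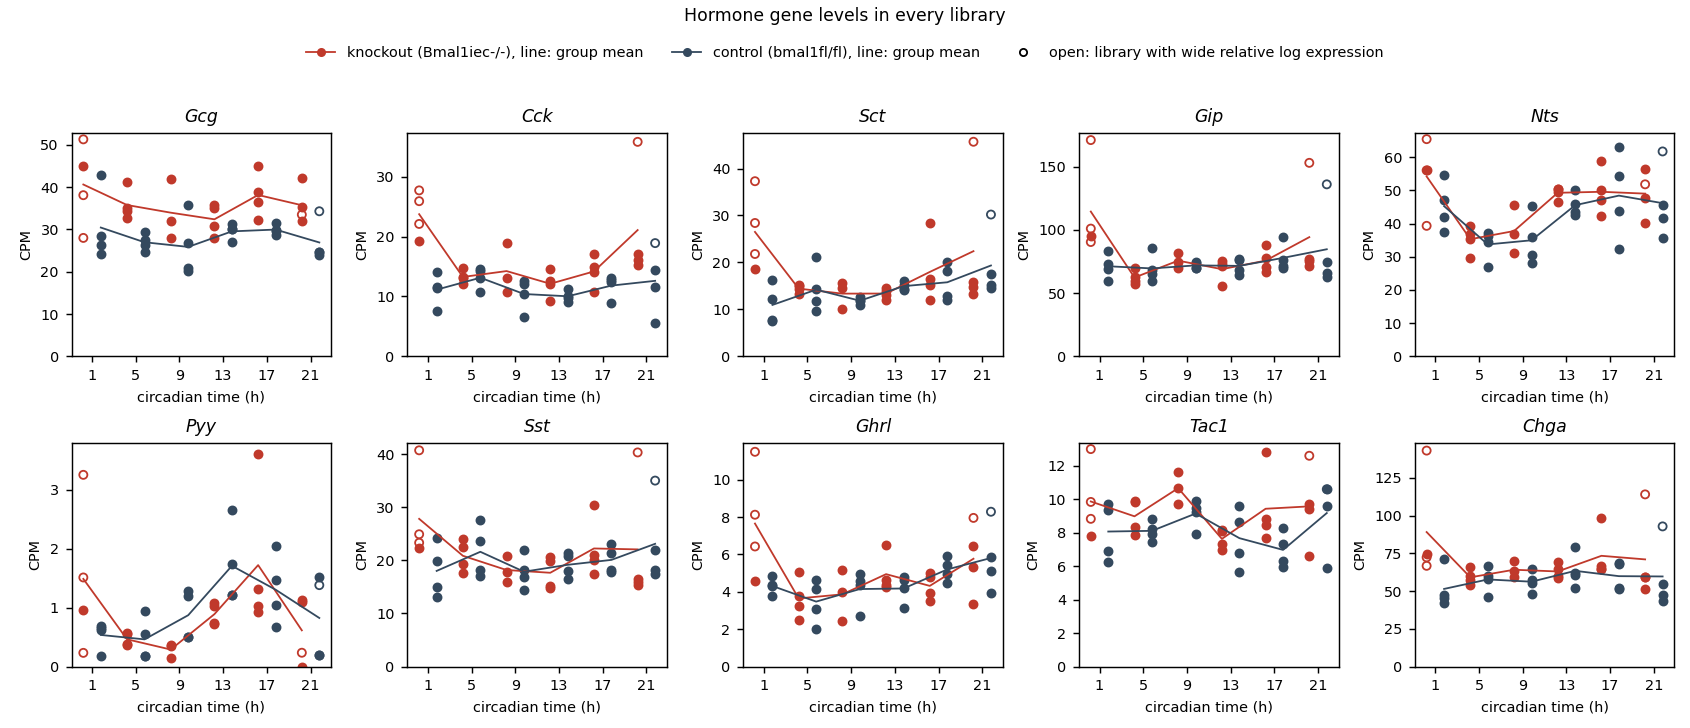
Level of each hormone gene in CPM against circadian time in hours, 1 panel per gene, with a point for each library (knockout red and left of control in dark grey at each time), lines through the group means and open points for the 5 libraries of wide spread. Gcg lies between 27.9 and 51.3 CPM in knockout and between 20.2 and 42.8 CPM in control, and the Pyy panel reaches only 3.61 CPM.

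Averaged over the 6 times, 3 of the 10 genes were higher in knockout jejunum, Gcg, Cck and Chga, and 0 were lower. The background in the same test was 12.2% of all genes higher and 11.0% lower (edgeR quasi-likelihood test, Benjamini-Hochberg adjustment over all genes). Sct and Tac1, both with positive differences, had an unadjusted p below 0.05 and did not pass. Such a p was found in 34.4% of all genes and in 5 of the 10, the 3 called genes included. With the 5 libraries of wide spread left out, the same 3 passed against a background of 10.3% higher, and with CT1 left out Gcg and Cck passed against 7.52%. The median difference of the 10 was 0.16 (log2, knockout minus control), against -0.01 over all genes. Of the 10 differences 9 were above 0, against 48.7% of all genes. Over the 5 times without CT1 this was less uniform. The differences were then 0.35 for Cck, 0.34 for Gcg, 0.17 for Tac1, 0.15 for Chga and 0.08 for Sct and Nts. Those of the rest were -0.0 for Gip, -0.02 for Sst and Ghrl, and -0.47 for Pyy. In these whole-tissue samples, a change in the number of cells of a type and a change in RNA per cell cannot be told apart. The labels do not tie libraries to single mice, and p-values reflect only how far these libraries differ from each other.

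Gcg encodes proglucagon, which L cells of the gut cut into the glucagon-like peptides, and lies at chr2:62474530-62483650 on the minus strand (mm10, GENCODE). Knockout libraries read 28.0, 38.1, 51.3 and 45.1 CPM at CT1, 41.2, 35.0, 32.6 and 34.3 at CT5, 27.9, 42.0 and 32.0 at CT9, 30.9, 35.0, 28.0 and 35.7 at CT13, 32.2, 36.5, 38.9 and 45 at CT17, and 31.9, 42.1, 35.4 and 33.5 at CT21. Control libraries read 28.5, 42.8, 24.2 and 26.3 CPM at CT1, 26.4, 29.4, 24.7 and 27.4 at CT5, 20.2, 20.9, 26.7 and 35.7 at CT9, 30.0, 31.2, 30.0 and 27.0 at CT13, 28.8, 29.6, 29.9 and 31.6 at CT17, and 34.3, 24.7, 24.7 and 24.0 at CT21. The genotypes overlapped at CT1, CT9, CT13 and CT21, and all knockout libraries lay above all controls at CT5 and CT17, where 4.44% and 5.37% of all genes did so. Knockout exceeded the control median in 22 of 23 libraries. The difference was 0.35 ± 0.07 (log2, SE; 1.27-fold; adjusted p = 0.000158, edgeR). It was 0.40 without the 5 libraries (adjusted p = 2.21e-05) and 0.34 over the 5 times without CT1 (adjusted p = 0.00104), and it kept its call in each of 47 fits that left out 1 library (0.32 to 0.38). No single time passed on its own, with adjusted p from 0.0747 at CT1 to 0.828 at CT13.

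Cck encodes cholecystokinin, which I cells release on fat and protein to contract the gallbladder and stimulate pancreatic secretion, and lies at chr9:121489824-121495694 on the minus strand. Knockout libraries read 25.9, 22.1, 27.7 and 19.2 CPM at CT1, 12.1, 14.7, 13.2 and 13.0 at CT5, 13.0, 19.0 and 10.7 at CT9, 12.6, 12, 14.6 and 9.25 at CT13, 10.7, 14.0, 14.9 and 17.1 at CT17, and 15.3, 16.1, 17.1 and 35.8 at CT21. Control libraries read 7.61, 11.5, 11.4 and 14.0 CPM at CT1, 13.0, 14.6, 10.7 and 14.2 at CT5, 12, 6.62, 12.6 and 10.4 at CT9, 10.1, 11.2, 9.75 and 9.06 at CT13, 8.94, 12.4, 12.8 and 13.1 at CT17, and 18.9, 5.52, 11.6 and 14.4 at CT21. Every knockout library stood above every control library at CT1, and the genotypes overlapped at the other 5 times. Over the day Cck differed by 0.47 ± 0.10 (log2, SE; 1.39-fold; adjusted p = 0.000593, edgeR), and 20 of 23 knockout libraries exceeded the control median. The difference was 0.40 without the 5 libraries (adjusted p = 0.00152) and 0.35 without CT1 (adjusted p = 0.0292), and its range over the 47 single-library removals was 0.41 to 0.51. Control CT21 replicate 2 was the lowest library at 5.52 CPM, and knockout CT21 replicate 4 the highest at 35.8 CPM.

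Chga encodes chromogranin A, a granule protein of nearly all enteroendocrine cells, and lies at chr12:102554969-102565028 on the plus strand. It averaged 69.9 CPM in knockout and 58.0 CPM in control, and 21 of 23 knockout libraries exceeded the control median. The knockout libraries lay at 51.4 to 143 CPM (median 64.4) and the control libraries at 41.9 to 92.8 CPM (median 56.2), so the ranges overlapped. The difference was 0.26 ± 0.09 (log2, SE; 1.20-fold; adjusted p = 0.0372, edgeR). It was 0.20 without the 5 libraries (adjusted p = 0.03), but 0.15 over the 5 times without CT1, where the call was lost (adjusted p = 0.373). The call was also lost on leaving out any 1 of 12 libraries, with differences of 0.20 to 0.25 and adjusted p of 0.0525 to 0.069. These were knockout CT1 replicate 3, CT9 replicate 3, CT17 replicate 4 and CT21 replicate 4, and control CT1 replicate 1, CT5 replicate 4, CT9 replicate 2, CT13 replicate 2, CT17 replicates 1 and 4, and CT21 replicates 2 and 3.

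The other 7 did not pass over the day. Sct, the precursor of secretin, which drives bicarbonate secretion by the pancreas, averaged 18.0 CPM in knockout and 14.5 CPM in control, a difference of 0.28 (approximate 95% interval 0.03 to 0.54; adjusted p = 0.099). Tac1, the precursor of substance P and related tachykinins, averaged 9.36 CPM in knockout and 8.19 CPM in control (0.19, interval 0.02 to 0.35; adjusted p = 0.0873). For Gip the difference was 0.11 (-0.06 to 0.28), and for Nts, whose peptide promotes fat uptake and slows motility, it was 0.11 (-0.03 to 0.26). Sst, the precursor of somatostatin, which inhibits release of most gut hormones, differed by 0.09 (-0.12 to 0.30). Ghrl, the precursor of the appetite hormone ghrelin, made mainly in stomach, differed by 0.12 (-0.11 to 0.36). Ghrl is the 1 member that other annotated genes overlap, a pair on the opposite strand sharing 3 and 695 bases with it, and whether counting used strand is not given, so its values are uncertain to that extent. Pyy, whose peptide is made mainly in the ileum and colon, was at or near the floor, with 0 to 3.61 CPM (0 to 23 counts in any library), and its interval was -0.71 to 0.42. Without the 5 libraries the Sct difference was 0.14, the Sst difference 0.00, and the Ghrl difference -0.0018.

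**Figure D2:**
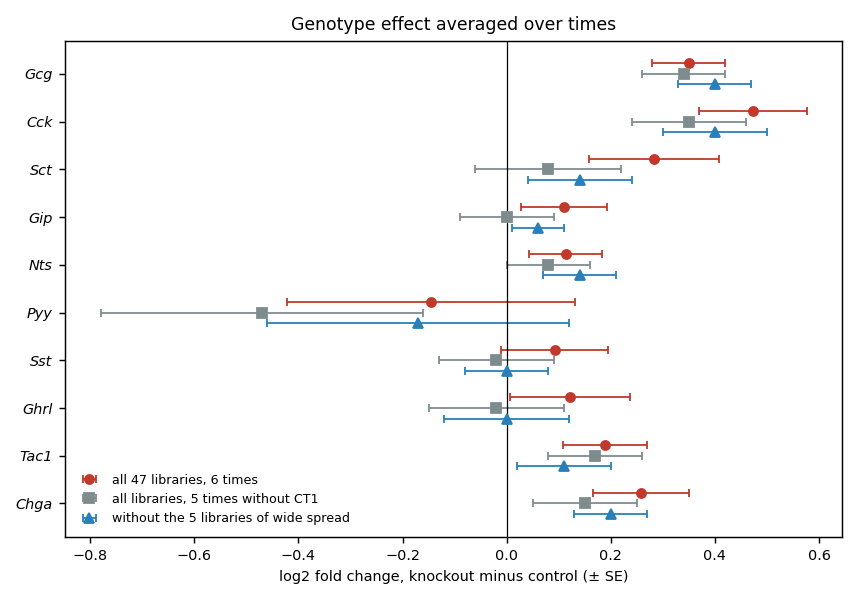
Difference of each hormone gene on the log2 scale, knockout minus control, averaged over times, with bars of 1 SE, from all libraries (circles), over 5 times without CT1 (squares) and without the 5 libraries of wide spread (triangles). Gcg at 0.35 and Cck at 0.47 keep positive values in the 3 settings, Chga at 0.26 moves to 0.15 without CT1, and Pyy has the longest bars.

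At a single time, called differences were confined to CT1 in the fit with all libraries. There, 5 of 10 genes were higher in knockout and 0 lower, against a background of 12.6% of all genes higher and 8.07% lower. Epithelial markers moved with them at CT1: 5 of 8 were higher, Krt8 (0.85, adjusted p = 0.00527), Krt20 (0.65, adjusted p = 0.00623), Krt18 (0.55, adjusted p = 0.0458), Vil1 (0.37, adjusted p = 0.0176) and Epcam (0.36, adjusted p = 0.0346). The summed level of the 8 markers at CT1 was 10700 to 15400 CPM in knockout and 8370 to 11000 CPM in control libraries. Their median difference at CT1 was 0.52 (log2), and 0.24 without the 5 libraries of wide spread, where 1 knockout CT1 library is left. The tuft cell genes Trpm5 (0.82, adjusted p = 0.00719) and Avil (0.61, adjusted p = 0.0377) and the goblet cell gene Zg16 (0.60, adjusted p = 0.0351) were also higher at CT1. Their lists had CT1 medians of 0.43 (tuft) and 0.27 (goblet), or 0.14 and 0.27 without the 5 libraries. Dclk1 (-0.19) and Muc2 (-0.13) lay below 0 and were not called. Of 7 tested enteroendocrine markers outside the 10, 0 were called at CT1 (median -0.19). Of 14 identity factors 0 were higher and 1 lower, Etv1 (-0.86, adjusted p = 0.0436, edgeR), with a median of -0.36. Both medians changed sign without the 5 libraries, to 0.09 for the enteroendocrine markers and 0.29 for the identity factors. All 5 T cell markers were lower (median -1.4, or -1.53 without the 5 libraries). The part of these shifts in the hormone calls was not tested. The 10 had a median difference of 0.74 at CT1 (log2), against -0.01 over all genes. At CT5, CT9, CT13, CT17 and CT21 0 of 10 passed by edgeR, DESeq2 or limma-voom, against 0.837%, 3.6%, 3.39%, 2.09% and 1.43% of all genes in either direction by edgeR. At an unadjusted p below 0.05 the members numbered 1, 1, 0, 2 and 2 at those times, against 7.41%, 12.2%, 14.3%, 11.7% and 10.2% of all genes.

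Sct was the member that differed most among the calls at CT1, with 28.4, 21.8, 37.3 and 18.5 CPM in knockout libraries, against 7.44, 12.3, 7.77 and 16.3 CPM in control libraries (2.42-fold; log2 1.27 ± 0.31 SE; adjusted p = 0.00411, edgeR). Cck, given above, was 2.14-fold higher (log2 1.10 ± 0.25 SE; adjusted p = 0.00292). Gip, at 101, 90.4, 171 and 95.5 CPM in knockout, against 69.2, 83.2, 59.3 and 73.2 CPM in control, was 1.61-fold higher (adjusted p = 0.0144). In these 3 genes every knockout library exceeded every control library, as 9.18% of all genes did. Chga read 72.3, 66.7, 143 and 74.2 CPM in knockout, against 41.9, 71.1, 47.2 and 45.4 CPM in control (1.73-fold; adjusted p = 0.0121), and Ghrl 6.43, 8.13, 11.5 and 4.57 CPM in knockout, against 4.84, 4.34, 4.31 and 3.76 CPM in control (1.75-fold; adjusted p = 0.0297). In both of these genes the genotypes overlapped.

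The CT1 calls rest on libraries of wide spread, since knockout replicates 1, 2 and 3 belong to the 5. Replicate 4, with a spread of 0.345, read 19.2 CPM for Cck, 18.5 for Sct, 95.5 for Gip and 74.2 for Chga, each above all 4 control libraries. For Ghrl it read 4.57 CPM, below control replicate 1 at 4.84 CPM. Without the 5 libraries that 1 knockout library is assumed to vary like the other groups. The CT1 differences in that fit were 0.75 for Cck, 0.71 for Sct, 0.49 for Chga, 0.38 for Gip and 0.04 for Ghrl. Over all genes 40 passed in that fit, against 3233 with all libraries. With the slope on length as a covariate, Cck (0.68, adjusted p = 0.0251) and Sct (0.70, adjusted p = 0.0388) passed at CT1 and Cck also at CT21 (0.69, adjusted p = 0.0337), and Ghrl (0.37, adjusted p = 0.365), Chga (0.35, adjusted p = 0.159) and Gip (0.25, adjusted p = 0.192) did not at CT1. Ghrl at CT1 also missed the threshold with limma-voom (adjusted p = 0.0538) and without a filter (adjusted p = 0.0519). The call was lost on leaving out knockout CT1 replicate 3 for Gip (0.43, adjusted p = 0.124), Chga (0.47, adjusted p = 0.123) and Ghrl (0.55, adjusted p = 0.18). It was lost without control CT1 replicate 3 for Gip (0.58, adjusted p = 0.0563) and without control CT1 replicate 1 for Chga (0.68, adjusted p = 0.058), and for Ghrl without knockout CT1 replicate 1 or 2 or any 1 of the 4 control CT1 libraries (0.73 to 0.86, adjusted p 0.0523 to 0.0757). Cck and Sct were called at CT1 in all 47 single-library removals. Knockout CT1 replicate 3 was the highest library of its group for all 10 members, as for 33.1% of all genes.

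**Figure D3:**
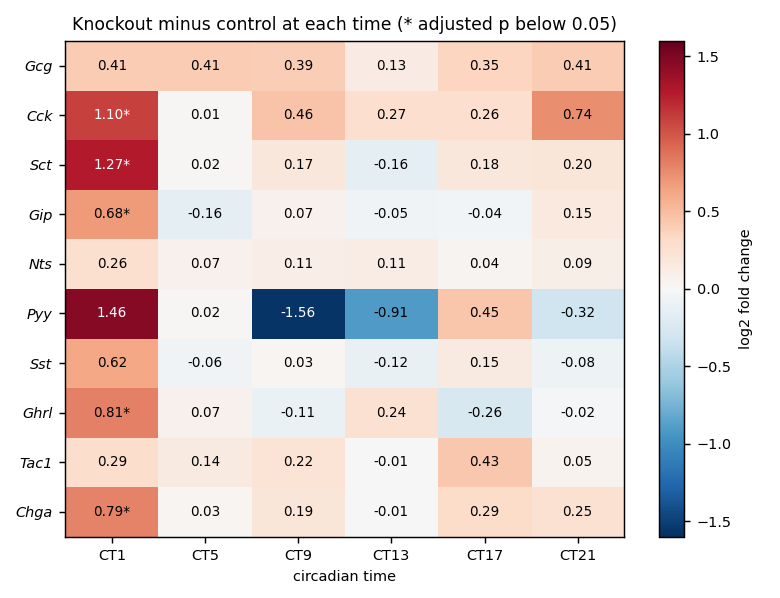
Difference, knockout minus control, on the log2 scale for the 10 genes (rows) at each circadian time (columns), with the value in each cell, red for higher and blue for lower in knockout, and a star for an adjusted p below 0.05. The 5 starred cells, Cck, Sct, Gip, Ghrl and Chga, lie in the CT1 column between 0.68 and 1.27.

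A 24-h cosine was fitted in each genotype and tested with edgeR. In knockout jejunum Cck (amplitude 0.46 log2, peak at CT23.35, adjusted p = 0.00743), Sct (0.51, CT22.58, adjusted p = 0.0165) and Gip (0.32, CT22.84, adjusted p = 0.0272) passed, 3 of 10 against 14.6% of all genes. In control jejunum Nts (0.26, CT18.68, adjusted p = 0.0267) and Pyy (0.91, CT14.57, adjusted p = 0.0391) passed, 2 of 10 against 20.5% of all genes. The difference between the genotypes' rhythms was called for 0 of 10 by edgeR, DESeq2 or limma-voom, against 1.5% of all genes, and 2 had an unadjusted p below 0.05 (Sct 0.0493, Pyy 0.0461). Nts in knockout had amplitude 0.25 and peak CT19.46 (adjusted p = 0.0649), and its difference between genotypes had an adjusted p of 0.986.

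Nts means ran 54.2, 35.3, 37.7, 49.2, 49.6 and 49.0 CPM from CT1 to CT21 in knockout, against 45.2, 33.7, 34.9, 45.5, 48.4 and 46.1 CPM in control. The lowest means were those of CT5 and CT9 in both genotypes. Without the 5 libraries the knockout calls of Cck, Sct and Gip were lost (adjusted p = 0.386, 0.544 and 0.503), and Nts (adjusted p = 0.0482) and Pyy (adjusted p = 0.0245) were called in knockout instead. With the length slope in the model 0 members were called in knockout, 2 had an unadjusted p below 0.05, and Nts had an adjusted p of 0.0601 in control. The control call of Nts was lost on leaving out CT5 replicate 1, CT9 replicate 1 or 3, CT17 replicate 2 or 4, or CT21 replicate 1 (adjusted p 0.0531 to 0.0842). That of Pyy was lost on leaving out CT1 replicate 1, CT5 replicate 2, 3 or 4, CT13 replicate 2 or 4, or CT17 replicate 2 or 3 (0.0534 to 0.113). The knockout call of Gip was lost without CT1 replicate 3, CT13 replicate 4 or CT21 replicate 4 (adjusted p 0.051 to 0.0859), with limma-voom (adjusted p = 0.0539) or without a filter (adjusted p = 0.0516), and that of Sct without CT21 replicate 4 (adjusted p = 0.0695).

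Pyy ranged from 0 to 3.61 CPM in knockout and from 0.172 to 2.66 CPM in control. All knockout libraries lay below all controls at CT9, with 0.346, 0.148 and 0.37 CPM in knockout, against 0.506, 1.19, 1.28 and 0.505 CPM in control. The same held at CT13, with 1.02, 0.714, 1.08 and 0.74 CPM in knockout, against 1.22, 2.66, 1.22 and 1.73 CPM in control. That order held in 5.73% and 5.89% of all genes at those times, and neither difference passed (adjusted p = 0.458 and 0.501, edgeR). Over all times 20 of 47 libraries had 3 or fewer Pyy counts.

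Covariation of the hormone genes within groups was measured over libraries, and the same share for pairs of other genes was not computed. After group means were removed from log2(CPM + 1), 16 of 45 pairs of members correlated over 47 libraries by a permutation test with 100000 resamples and Benjamini-Hochberg adjustment over the 45, all 16 positively, with a median Pearson r of 0.37 over all pairs and 11 pairs called by Spearman's rho. Sct and Sst had r = 0.85 and rho = 0.77 (permutation, adjusted p = 0.00045 and 0.00067), and r = 0.78 without the 2 libraries farthest from the median. Gip and Chga had r = 0.83 and rho = 0.64 (adjusted p = 0.00045 and 0.0033, permutation; r = 0.74 without the 2 farthest). Gcg and Cck, both called over the day, had r = 0.21 and rho = 0.21 (adjusted p = 0.36 and 0.31, permutation). Without the 5 libraries of wide spread 2 of 45 pairs were called by r, Sct with Sst (r = 0.72, adjusted p = 0.0094, permutation) and Sst with Chga (r = 0.60, adjusted p = 0.034, permutation), and the median r was 0.20. For Sct with Sst rho was 0.68 (adjusted p = 0.004, permutation) and r was 0.67 without the 2 farthest libraries. For Sst with Chga rho was 0.48 and was not called (adjusted p = 0.079, permutation), and r was 0.45 without the 2 farthest. The values of a pair share their library, its depth and its spread.

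**Figure D4:**
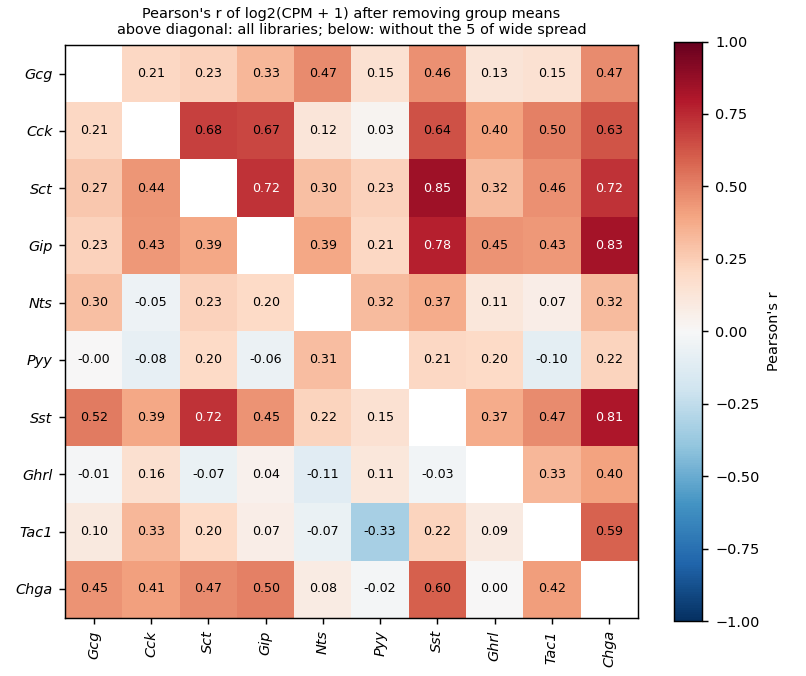
Pearson r between each pair of hormone genes over libraries, group means removed, on log2(CPM + 1), above the diagonal with all libraries and below it without the 5 of wide spread, red for positive. The cell of Sct and Sst reads 0.85 above the diagonal and 0.72 below it.

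Among the 3 most abundant members by CPM, the other genes whose group means were most like theirs were named by the highest Pearson r over 12 group means. Gip was most like Psmb3 (r = 0.973, rho = 0.944) and Arl6ip4 (r = 0.969, rho = 0.916). Chga was most like Ecsit (r = 0.963, rho = 0.951) and Slc35c2 (r = 0.958, rho = 0.923). Nts was most like Gtf2f2 (r = 0.947, rho = 0.958) and Psmd11 (r = 0.943, rho = 0.888). These are descriptions over 12 means picked from 15646 genes. The means include the 5 libraries of wide spread, and likeness without them was not computed. The highest Gip means, knockout CT1 (115 CPM), knockout CT21 (94.3 CPM) and control CT21 (84.7 CPM), belong to the groups that hold those libraries. Without them the Gip means at CT21 were 74.7 CPM in knockout and 67.6 CPM in control.

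The counts that follow are for gene lists around these hormones. Those from all libraries are to be read against the 12.2% of all genes higher and 11.0% lower over the day. Counts without the 5 libraries have a background of their own, given above for higher genes only. Of 18 identity factors 14 were tested, and over the day 0 were higher and 1 lower, Foxa1, a pioneer factor of endoderm (6.9 CPM in knockout, 8.09 CPM in control; -0.22 ± 0.07 SE; adjusted p = 0.0288; -0.20 and adjusted p = 0.0815 without the 5 libraries). Without the 5 libraries the list had 2 higher and 0 lower, Neurod1, a factor of endocrine differentiation (0.45, adjusted p = 0.0239; 0.31 and adjusted p = 0.129 with all libraries), and Lmx1a (0.36, adjusted p = 0.0485; 0.18 and adjusted p = 0.447 with all libraries). Of 14 granule and secretory proteins 12 were tested and 1 was higher, Chgb, chromogranin B (196 CPM in knockout, 168 CPM in control; 0.22 ± 0.06 SE; adjusted p = 0.0108), and 0 lower. Their medians were 0.04 and 0.06 (log2), against -0.01 for all genes. The summed level of 8 enteroendocrine markers that all stand in the lists given here (Chgb, Scg2, Neurod1, Pax6, Fev, Rfx6, Pcsk1 and Tph1) was 235 to 382 CPM in knockout and 198 to 299 CPM in control.

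Of 10 processing and breakdown enzymes 9 were tested, with 0 higher and 2 lower, or 3 lower without the 5 libraries, Anpep among them. Mme, neprilysin, which degrades small peptides at the cell surface, averaged 702 CPM in knockout and 1230 CPM in control (-0.79 ± 0.09 SE; adjusted p = 2.94e-09, edgeR). Ace, angiotensin-converting enzyme, averaged 1510 CPM in knockout and 2190 CPM in control (-0.50 ± 0.07 SE; adjusted p = 2.43e-07). Pcsk1, which cuts prohormones, differed by 0.11 (adjusted p = 0.219), and Dpp4, which inactivates incretins, by -0.05, and neither passed. Mme and Ace are enzymes of the brush border, made by absorptive cells.

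All 7 listed enzymes and carriers of amines were tested, and 2 were higher and 0 lower. Ddc, aromatic amino acid decarboxylase, averaged 321 CPM in knockout and 193 CPM in control (0.83 ± 0.06 SE; adjusted p = 4.16e-15), and it is also expressed by absorptive cells. Tph1 acts in serotonin synthesis in enterochromaffin cells. It averaged 20.4 CPM in knockout and 17.7 CPM in control (0.20 ± 0.06 SE, adjusted p = 0.0119, edgeR). Of 13 genes listed as nutrient and bile acid sensors 9 were tested, with 2 higher and 1 lower, the adhesion receptor Adgrd1. Without the 5 libraries the differences were 0.87 for Ffar4, 0.51 for Ffar3 and -0.54 for Adgrd1. Lpar5 was then at 0.18 and Slc5a1 at -0.13, against 0.18 and -0.08 with all libraries. At CT1 Slc5a1 had the other sign with all libraries (0.62). Ffar4, a receptor for long-chain fatty acids, averaged 2.86 CPM in knockout and 1.46 CPM in control (0.95 ± 0.20 SE; adjusted p = 0.000396). Ffar3, a receptor for short-chain fatty acids, averaged 1.37 CPM in knockout and 1.01 CPM in control (0.44 ± 0.16 SE; adjusted p = 0.0401). Adgrd1, an adhesion receptor, averaged 39.8 CPM in knockout and 56.3 CPM in control (-0.49 ± 0.08 SE; adjusted p = 6.32e-06).

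Of 21 receptors for these hormones 7 were tested, with 0 higher and 1 lower. Glp1r, the receptor of glucagon-like peptide, averaged 1.96 CPM in knockout and 3.77 CPM in control (-0.93 ± 0.14 SE; adjusted p = 2.06e-06), and it was -0.82 without the 5 libraries (adjusted p = 6.92e-05). In mouse gut Glp1r is carried by intraepithelial lymphocytes as well as by nerves. Beside it, all 5 T cell markers were lower (median -1.38, log2), and their sum was 45.3 to 103 CPM in knockout and 88.5 to 342 CPM in control, with none of the 5 at 0. The part of T cells in the Glp1r difference was not tested. Of 18 other gut peptides 10 were tested, with 0 higher and 2 lower. Guca2b, uroguanylin, averaged 641 CPM in knockout and 942 CPM in control (-0.50 ± 0.09 SE; adjusted p = 7.05e-05), and Guca2a, guanylin, averaged 124 CPM in knockout and 166 CPM in control (-0.41 ± 0.11 SE; adjusted p = 0.00429). They act on the guanylate cyclase receptor of the epithelium and regulate salt and water secretion. Of the remaining marker lists, distal intestine had 1 of 4 higher (Muc13, 0.16, adjusted p = 0.0404) and 1 lower, Cubn, at 234 CPM in knockout and 568 CPM in control (-1.24, adjusted p = 8.16e-09). Tuft cells had 1 of 4 higher, Trpm5, at 23.1 CPM in knockout and 14.7 CPM in control (0.66, adjusted p = 1.72e-07). Proximal intestine had 1 of 3 lower (Cybrd1, -0.38, adjusted p = 0.000476), goblet cells 1 of 5 higher (Zg16, 0.24, adjusted p = 0.0313) and Paneth cells 1 of 5 higher (Ang4, 0.33, adjusted p = 0.0464). The Muc13, Zg16 and Ang4 calls were lost without the 5 libraries (adjusted p = 0.0964, 0.061 and 0.177), and the Paneth list then had 0 higher and 2 lower, Mmp7 (-0.20, adjusted p = 0.0449) and Defa24 (-0.17, adjusted p = 0.0446).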

How the data were processed

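Whole jejunum was measured by RNA-seq of 47 matched libraries of 48 labelled; 1 knockout CT9 sample was not analysed here. The authors deposited raw read counts per gene, made per library and not scaled. NucleoSpin RNA and TruSeq Stranded mRNA kits were used, per the labels' protocols. The submitters' processing notes list STAR 2.7.5c and featureCounts 1.4.6 among other tools, on mm10. How strand and multimapping reads were counted, and the annotation release, are not given in the sources used.

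Groups came from genotype and time labels, and replicate numbers follow accession order and pair nothing. Symbols came from a GENCODE annotation of mm10 (54349 IDs with version, 792 without, 260 unmatched). Counts were filtered (filterByExpr, minimum count 10, minimum total 15), TMM-scaled and fitted with edgeR 4.0.16 in R 4.3.3 (1 mean per group, 35 residual degrees of freedom, quasi-likelihood test), with Benjamini-Hochberg adjustment over all 15646 genes and a threshold of 0.05. Rhythm used a cosine and sine of 24-h period per genotype. Alternatives were DESeq2 1.42.0, limma-voom (limma 3.58.1), RLE and upper quartile scaling, no filter, the length slope as covariate, leaving out 5 libraries of interquartile range above 0.5, and single libraries. Scripts were tested on simulated data. No 2 libraries of a group agreed within sampling noise (chi-square per degree of freedom at least 3.23 over 69 pairs).

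All 10 members were named whatever their result, and from each list the genes that passed over the day were named, at most 4. Members and lists were chosen with earlier results of these data known.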

Additional observations from a re-analysis of the deposited data

Results flagged for a closer look

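In 15 of 110 sets, each the 4 libraries of 1 group for 1 hormone gene, 1 library stood apart from the other 3 by Dixon's test. Chance gives about 1 in 20 (5%) for a set. The genes of a group share its libraries, so the 110 sets are not independent, and the excess over 5% was not tested. Of the 15 flags, 10 lie in 3 of the 5 libraries of wide spread. Knockout CT21 replicate 4 was highest for Cck (35.8 CPM), Sct (45.7 CPM), Gip (153 CPM), Sst (40.3 CPM) and Chga (114 CPM). Knockout CT1 replicate 3 was highest for Gip (171 CPM), Sst (40.7 CPM) and Chga (143 CPM). Control CT21 replicate 1 was highest for Gip (136 CPM) and Gcg (34.3 CPM). The others were Chga in knockout CT17 replicate 4 (98.2 CPM, highest), Pyy in knockout CT17 replicate 2 (3.61 CPM, highest), Ghrl in knockout CT13 replicate 3 (6.5 CPM, highest), Cck in control CT17 replicate 1 (8.94 CPM, lowest) and Pyy in control CT1 replicate 1 (0.173 CPM, lowest).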

How the results depend on the processing

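The differences of Gcg and Cck over the day kept their direction and call in each alternative fitted. Without the 5 libraries of wide spread, 0 member-time differences were called, against 5, and 2 pairs of members, against 16; Ghrl over the day (-0.0018) and Tac1 at CT1 (-0.09) changed sign. With the length slope as covariate, 3 member-time differences, 0 knockout rhythms and 1 control rhythm were called, and without a filter 1 control rhythm. Leaving out 1 library gave 2 to 7 member-time differences, 1 to 5 knockout rhythms, 0 to 2 control rhythms and 2 to 4 differences over the day. Chga over the day lost its call with upper quartile scaling (0.24, adjusted p = 0.067) and without a filter (0.27, adjusted p = 0.0788). Over all genes, the 3233 calls at CT1 became 2097 without a filter, 1654 with the length slope, 40 without the 5 libraries, and 1319 and 1530 without knockout or control CT1 replicate 1; the 2277 knockout rhythms became 1374 with the length slope and 3600 without knockout CT21 replicate 1. The cause was not tested. The mean over 5 times without CT1 was chosen after seeing the data. No paired analysis was possible because the labels give no replicate numbers shared between groups. Depth limits Pyy and Ghrl most.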
